A study of Rattus norvegicus with 8 samples.

Results

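The Nrf2-driven antioxidant programme was followed here through its regulator Nfe2l2, which encodes Nrf2, and 9 genes of its output: Gclc, Gclm, Slc7a11, Txnrd1, Srxn1, Nqo1, Hmox1, Akr7a3 and Ephx1. The genes were listed by name, and their probes were found by gene name among the non-control probes of the array. All 10 genes were present, with 12 probes on 14 spots, among 45598 probes on 58717 spots. RNA came from cell clusters cut out of frozen rat liver sections by laser microdissection (LMD), and each of 8 samples was hybridised to its own 1-colour array. The 3 groups were 2 samples of mature hepatocytes (MHs) from control recipient livers, 3 samples of small hepatocyte-like progenitor cells (SHPCs) from control recipient livers and 3 samples of SHPCs from livers that had received bone marrow-derived mesenchymal cells (BM-MCs). SHPCs are small hepatocyte-like cells that form clusters in livers whose own hepatocytes cannot divide.

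The labels call the livers of all 3 groups recipient livers, and according to the methods recipients were female F344 rats given 2 injections of retrorsine, an alkaloid that blocks hepatocyte division, at 30 mg/kg each, followed by partial hepatectomy. MHs are therefore hepatocytes of a retrorsine-treated liver, and no sample of untreated liver was analysed here. The strain is F344 DPPIV+ by the labels, but by the methods only the donors were DPPIV+ and the recipients were DPPIV-. BM-MCs came from a young male F344 donor. The methods give the harvest of recipient livers as 14 days after transplantation, in their account of histology, and no separate day for LMD was found there. No label ties a sample to an animal, so that p-values reflect only how far these samples vary, and that variation may be technical.

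Nrf2 is a transcription factor that the adaptor protein Keap1 holds in the cytoplasm and hands over for degradation. Oxidants and electrophiles modify Keap1, and Nrf2 then accumulates, pairs with a small Maf protein and binds antioxidant response elements near genes of glutathione and thioredoxin metabolism, quinone reduction, haem breakdown and detoxification. Hepatocytes meet many electrophiles made by their own drug metabolism, and the programme is a main part of their defence. Nrf2 is controlled mostly through the stability of its protein, which an RNA array does not measure.

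The share of spots well above background ran from 57.0% to 61.5% over the arrays, and 0 spots were saturated. The 10 hepatocyte markers were above background on all 7 arrays whose files were complete, with a summed linear signal (the array's 75th percentile being 1) of 961 to 1026 in MHs, 954 to 1131 in control SHPCs and 878 to 1062 in SHPCs with BM-MCs. By the array barcodes, the first set of 4 arrays held both MH samples with control SHPC replicates 1 and 2. Control SHPC replicate 3 and all SHPCs with BM-MCs lay in the second. The array set and the BM-MC group therefore overlap in large part, and for SHPCs with BM-MCs against MHs they cannot be told apart.

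Each gene was read by 60-base probes, and those of the regulator and of 3 of its targets whose SHPC levels all lay below the MHs are given from 5′ to 3′, since these are the stretches of transcript that the signals count. Nfe2l2 was read at chr3:58367137-58367196 (minus strand), Nqo1 at chr19:37251727-37251786 (minus strand), Hmox1 at chr19:13969336-13969395 (plus strand) and Ephx1 at chr13:96729072-96729131 (minus strand), all in the array's rn4 annotation.
Nfe2l2: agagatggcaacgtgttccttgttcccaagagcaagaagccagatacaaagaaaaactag
Nqo1: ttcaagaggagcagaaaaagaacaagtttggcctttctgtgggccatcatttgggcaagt
Hmox1: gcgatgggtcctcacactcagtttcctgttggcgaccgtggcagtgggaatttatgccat
Ephx1: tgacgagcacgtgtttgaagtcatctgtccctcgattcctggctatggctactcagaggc

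The core of the antioxidant response element, TGACNNNGC, was searched on both strands of the RefSeq promoter windows of the rat build GRCr8, from 250 bases before to 50 bases after each gene's start. Windows were matched for 9 of the 10 genes (not Hmox1), and 4 of these 9 genes held the core (44.4%), against 3602 of 27457 genes with a window (13.1%). In other lists described below, 10 of 28 other Nrf2 targets (35.7%) and 4 of 13 ATF4 targets (30.8%) held it. So did 3 of 14 general antioxidant genes (21.4%), 1 of 11 Nrf2 regulators (9.09%) and 0 of 11 AhR and CAR targets. Differences between these shares were not tested. Akr7a3, Gclc, Nqo1, Slc7a11 and Srxn1 held no match in these windows. The 3 matches before a start are shown here within the bases around them, with the match in capitals. All 3 read in the opposite orientation, as GCNNNGTCA. The match began 57 bases before a start of Ephx1 (chr13:95263118-95263234, minus strand), 172 bases before that of Gclm (chr2:213031903-213032031, plus strand) and 78 bases before a start of Txnrd1 (chr7:22755914-22756042, minus strand). The other listed starts of Ephx1 and Txnrd1 held no match.
Ephx1: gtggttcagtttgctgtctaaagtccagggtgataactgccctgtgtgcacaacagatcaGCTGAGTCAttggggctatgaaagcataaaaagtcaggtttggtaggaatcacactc
Gclm: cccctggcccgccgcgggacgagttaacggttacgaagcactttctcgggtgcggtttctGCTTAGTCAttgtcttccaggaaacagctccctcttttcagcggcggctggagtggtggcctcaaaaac
Txnrd1: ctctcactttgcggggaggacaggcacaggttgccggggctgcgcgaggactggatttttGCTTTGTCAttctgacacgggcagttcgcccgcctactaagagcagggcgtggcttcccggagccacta
The fourth gene, Nfe2l2, held its match, TGACGCCGC, 39 bases after its start. A match of these letters is a description of the sequence and does not show that Nrf2 binds there.

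Levels are given below as log2 of the processed signal relative to the 75th percentile of the same array, so that 0 is the level of a probe at that percentile and a difference of 1 is 2-fold. The level of one gene cannot be set against that of another, because probes differ in how brightly they report. Of the 12 probes, 9 probes of 8 genes were well above background on at least 3 of 7 arrays and entered the test, together with 23111 probes in all. Gclm and Slc7a11 did not enter it.

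**Figure D1:**
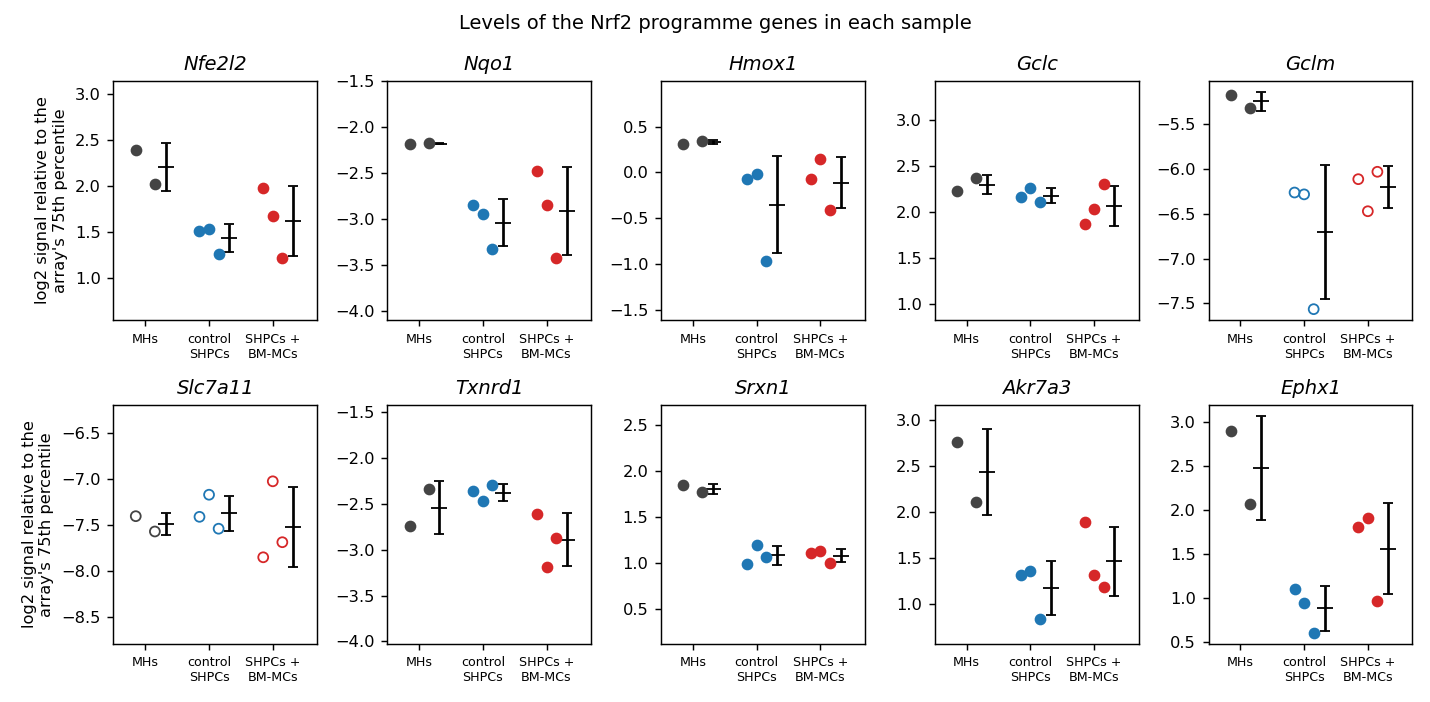
Level of each of the 10 genes in every sample, as log2 signal relative to the array's 75th percentile (vertical axes differ in position between genes). Points are samples, the bar beside each group gives its mean and SD (n = 2, 3 and 3), and open points mark groups in which no array with complete marks was well above background. MHs lie above both SHPC groups in Nfe2l2, Nqo1, Hmox1, Srxn1, Akr7a3, Ephx1 and the dim Gclm, and not in Gclc, Txnrd1 or Slc7a11.

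The transcript of the regulator was lower in SHPCs than in MHs in level, although its difference did not pass the adjusted test. Nfe2l2 was at 2.39 and 2.03 in MHs, at 1.51, 1.54 and 1.27 in control SHPCs and at 1.98, 1.68 and 1.23 in SHPCs with BM-MCs. Every SHPC sample lay below both MH samples, whereas the 2 SHPC groups overlapped, with BM-MC replicate 1 close to the lower MH sample. The log2 difference was -0.77 for control SHPCs against MHs (standard error 0.24, adjusted p = 0.16 from limma) and -0.58 for SHPCs with BM-MCs against MHs (adjusted p = 0.36 from limma). The latter was -0.38 without BM-MC replicate 3 and -0.40 without MH replicate 1. Between the SHPC groups it was 0.19, with a 95% interval from -0.32 to 0.70 (adjusted p = 0.67 from limma), and 0.011 without BM-MC replicate 1 and 0.39 without BM-MC replicate 3. In such bulk samples, fewer cells of a type and less RNA per cell cannot be told apart.

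Glutathione synthesis starts with glutamate-cysteine ligase, whose catalytic subunit is Gclc and whose modifier subunit is Gclm, and it depends on cystine brought in by the transporter Slc7a11. Gclc was at 2.22 and 2.37 in MHs, at 2.16, 2.26 and 2.10 in control SHPCs and at 1.87, 2.03 and 2.30 in SHPCs with BM-MCs, and the 3 groups overlapped. Its log2 difference against MHs was -0.12 in control SHPCs (95% interval -0.48 to 0.24, adjusted p = 0.70 from limma) and -0.23 in SHPCs with BM-MCs (95% interval -0.59 to 0.13, adjusted p = 0.53 from limma). Between the SHPC groups Gclc differed by -0.11 (95% interval -0.46 to 0.24, adjusted p = 0.71 from limma).

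Gclm was dim, and its probe holds only 15% G and C. It was well above background in both MH samples, at -5.17 and -5.32, and on none of the other 5 complete arrays, with measured levels of -6.26, -6.29 and -7.56 in control SHPCs and -6.12, -6.47 and -6.03 in SHPCs with BM-MCs. With the dim arrays raised to a floor (the weakest signal that still counted as well above background there, unless Gclm itself was brighter), Gclm was at least 1.57-fold higher in MHs than in control SHPCs and at least 1.43-fold higher than in SHPCs with BM-MCs. The probe did not enter the test. With no filter on dim probes the log2 difference of its measured signals was -1.46 for control SHPCs against MHs (adjusted p = 0.30 from limma) and -0.96 for SHPCs with BM-MCs against MHs (adjusted p = 0.23 from limma). Slc7a11 was not well above background on any of the 7 arrays by either of its 2 probes, so that its level is known only as a bound in all 3 groups.

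In the thioredoxin branch, Srxn1, which encodes sulfiredoxin and restores over-oxidised peroxiredoxins, was the only member called in any comparison. Srxn1 was at 1.85 and 1.77 in MHs, at 0.99, 1.19 and 1.07 in control SHPCs and at 1.11, 1.13 and 1.0 in SHPCs with BM-MCs. Both SHPC groups lay wholly below the MHs and on top of each other, with an SD of 0.10 in controls and 0.069 with BM-MCs (n = 3 each). Srxn1 was 1.66-fold lower in control SHPCs than in MHs (log2 difference -0.73, standard error 0.12, adjusted p = 0.038 from limma). In SHPCs with BM-MCs the log2 difference was likewise -0.73, and it missed the threshold (adjusted p = 0.074 from limma). The SHPC groups differed by -0.0014, with a 95% interval from -0.27 to 0.26 (adjusted p = 0.99 from limma). The call rested on few samples: it was lost without any 1 of 7 of the 8 samples and held only without BM-MC replicate 3 (adjusted p from 0.039 to 0.24 from limma), while the log2 difference stayed between -0.78 and -0.68.

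Txnrd1, the cytosolic thioredoxin reductase, stood apart from Srxn1. By its brighter probe it was at -2.74 and -2.34 in MHs, at -2.36, -2.48 and -2.30 in control SHPCs and at -2.61, -3.19 and -2.87 in SHPCs with BM-MCs. Here the MHs and the control SHPCs overlapped, and the SHPCs with BM-MCs lay below all control SHPCs. The difference between the SHPC groups was -0.51 (standard error 0.17, 95% interval -0.92 to -0.10, adjusted p = 0.24 from limma), and that of control SHPCs against MHs was 0.16 (adjusted p = 0.68 from limma). The second probe, which lies nearer to the 5′ end of the transcript (base 1472 against base 2409), gave another picture. It read -2.77 and -3.05 in MHs, -2.96, -3.27 and -3.64 in control SHPCs and -3.47, -3.03 and -3.13 in SHPCs with BM-MCs, with a difference between the SHPC groups of 0.079 (adjusted p = 0.87 from limma). The 2 probes thus opposed each other in sign both between the SHPC groups and between control SHPCs and MHs, where the second probe gave -0.38.

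Nqo1 reduces quinones, and Hmox1, haem oxygenase 1, opens the haem ring and is also made in quantity by macrophages. Nqo1 was at -2.18 and -2.17 in MHs, at -2.84, -2.94 and -3.33 in control SHPCs and at -2.48, -2.84 and -3.42 in SHPCs with BM-MCs. All SHPC samples lay below the MHs, and the SHPC groups overlapped. Its log2 difference was -0.86 for control SHPCs against MHs (standard error 0.28, adjusted p = 0.17 from limma), -0.73 for SHPCs with BM-MCs against MHs (-0.48 without BM-MC replicate 3, adjusted p = 0.34 over all samples from limma) and 0.13 between the SHPC groups (95% interval -0.51 to 0.77, adjusted p = 0.83 from limma).

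Hmox1 was at 0.31 and 0.34 in MHs, at -0.07, -0.02 and -0.96 in control SHPCs and at -0.07, 0.15 and -0.41 in SHPCs with BM-MCs. The SHPC samples again lay below both MHs, with control replicate 3 far below the other controls. The log2 difference was -0.68 for control SHPCs against MHs (95% interval -1.38 to 0.03, adjusted p = 0.27 from limma), and within the first set of arrays, which leaves out control replicate 3, it was -0.37 (adjusted p = 0.21 from limma). Against MHs, SHPCs with BM-MCs differed by -0.44 (adjusted p = 0.55 from limma), or -0.29 without BM-MC replicate 3, and the SHPC groups differed by 0.24 (95% interval -0.46 to 0.94, adjusted p = 0.70 from limma). Without control replicate 3 the last value was -0.066.

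Among the 8 tested genes, the widest differences against MHs over all samples were in the 2 detoxification enzymes, Akr7a3, an aldo-keto reductase that acts on aflatoxin dialdehyde, and Ephx1, the microsomal epoxide hydrolase. Akr7a3 was at 2.77 and 2.11 in MHs, at 1.32, 1.36 and 0.84 in control SHPCs and at 1.89, 1.32 and 1.19 in SHPCs with BM-MCs. Ephx1 was at 2.90 and 2.06 in MHs, at 1.10, 0.94 and 0.60 in control SHPCs and at 1.80, 1.90 and 0.97 in SHPCs with BM-MCs. In both genes the MHs lay above all SHPC samples, but the 2 MH samples themselves lay apart, with an SD of 0.47 for Akr7a3 and 0.59 for Ephx1.

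Ephx1 was 3.03-fold lower in control SHPCs than in MHs (log2 difference -1.60, standard error 0.35), which did not pass the adjusted test (adjusted p = 0.097 from limma). Akr7a3 was 2.40-fold lower (log2 difference -1.27, standard error 0.29, adjusted p = 0.11 from limma). In SHPCs with BM-MCs the log2 differences against MHs were -0.92 for Ephx1 (adjusted p = 0.34 from limma) and -0.97 for Akr7a3 (adjusted p = 0.28 from limma). These values depended on which MH sample was kept, since Ephx1 gave -0.51 and Akr7a3 -0.64 without MH replicate 1, and -1.34 and -1.30 without MH replicate 2. Without MH replicate 1 both thus differed less than Srxn1, which stayed between -0.77 and -0.69 with each sample left out. Between the SHPC groups Ephx1 was the member with the largest positive difference, 0.68 (95% interval 0.00053 to 1.35, adjusted p = 0.30 from limma). BM-MC replicates 1 and 2 lay above all controls, and replicate 3 lay among them. For Akr7a3 the same difference was 0.29 (95% interval -0.28 to 0.87, adjusted p = 0.55 from limma), and it ran from 0.082 without BM-MC replicate 1 to 0.44 without BM-MC replicate 3.

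**Figure D2:**
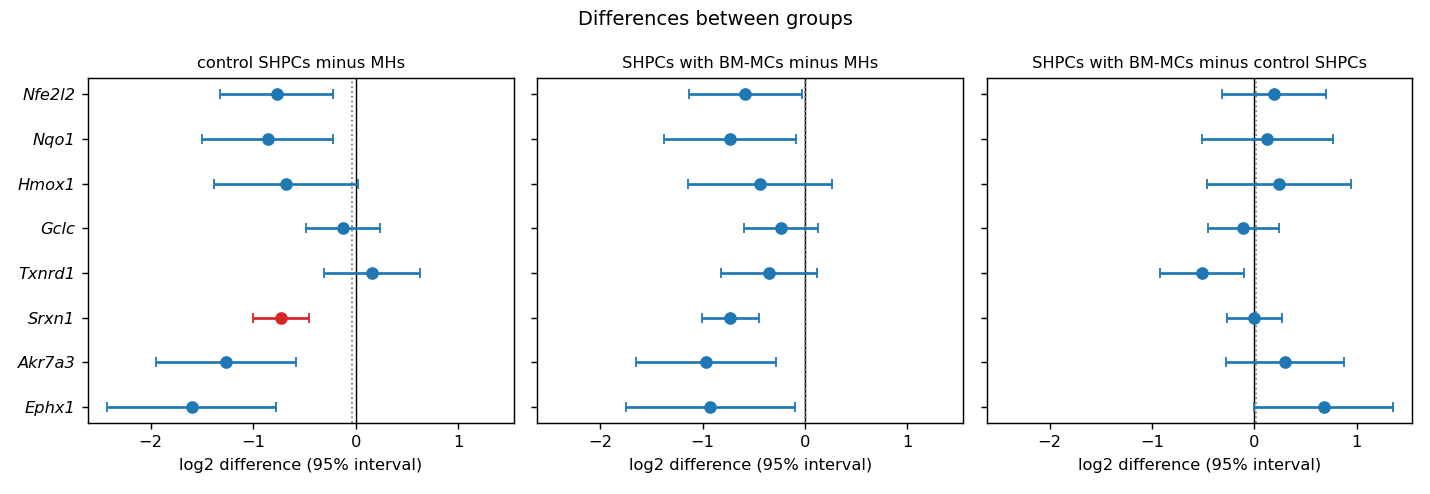
Log2 difference (horizontal axis) of the 8 tested genes in the 3 comparisons, with points for the estimate from limma and bars for its 95% interval. Red marks an adjusted p under 0.05, and the dotted line is the median of all 23111 probes. Srxn1 in control SHPCs against MHs is the only red point, at -0.73, and both panels with MHs hold 6 genes whose groups did not overlap.

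Of the 8 tested members, control SHPCs against MHs gave 1 called lower and 0 called higher, where 0.216% of all probes were called lower and 0.917% higher. In 6 of the 8 (Nfe2l2, Nqo1, Hmox1, Srxn1, Akr7a3 and Ephx1) every control SHPC sample was below both MHs, against 22.6% of all probes (18.7% lay wholly above), and the median log2 difference was -0.75, against -0.03 over all probes. At an unadjusted p under 0.05, 5 were lower and 0 higher, where 11% and 8.21% of all probes were. SHPCs with BM-MCs against MHs, a comparison that shares the 2 MH samples, gave 0 called in either direction by limma (background 0.32% higher and 0.0173% lower). In 6 of the 8 the BM-MC samples all lay below the MHs, against 16.2% of all probes (15.9% lay wholly above), with a median of -0.66 against 0.0030 over all probes. At an unadjusted p under 0.05, 5 were lower and 0 higher, where 5.95% and 7.33% of all probes were.

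Between SHPCs with and without BM-MCs, limma called 0 of the 8 members (background 0.0216% higher and 0% lower). Without control replicate 3 it likewise called 0 members, while the probes called in all went from 5 higher and 0 lower to 490 higher and 40 lower (2.12% and 0.173%). Ephx1 was higher and Txnrd1 lower at an unadjusted p under 0.05, where 10.7% of all probes were higher and 5.92% lower. Txnrd1 was also the only member whose groups did not overlap, against 11.6% of all probes in that direction, and the median difference was 0.16 against 0.02 over all probes. The methods' test without adjustment, on the same values, called only Txnrd1 lower and no member higher, and it called 0 after Benjamini-Hochberg adjustment.

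Some of these values differed between the array sets, which cannot be told apart from the samples they hold. Within the first set, control SHPCs against MHs gave log2 differences of -0.68 for Nfe2l2, -0.72 for Nqo1, -0.72 for Srxn1 (adjusted p = 0.10 from limma), -1.10 for Akr7a3 and -1.46 for Ephx1, all in the direction of the whole comparison. Within the second set, where control replicate 3 is the only control, SHPCs with BM-MCs against that sample gave 0.36 for Nfe2l2, 0.42 for Nqo1, 0.85 for Hmox1, 0.63 for Akr7a3 and 0.96 for Ephx1, each above its value over both sets, and -0.59 for Txnrd1. With 1 control sample these are given as values with no test.

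Several of the genes had similar profiles over the samples. Pearson's r among Nfe2l2, Nqo1, Akr7a3 and Ephx1 was 0.87 to 0.96 over the 8 samples, given as a description, since the step between MHs and SHPCs enters every pair. To these genes, Srxn1 had an r of 0.80 to 0.86 and Hmox1 of 0.76 to 0.83. How many other probes reach such values was not tested. Among the 6 SHPC samples, BM-MC replicate 1 had the highest level of Nfe2l2, Nqo1 and Akr7a3, and BM-MC replicate 3 and control replicate 3 held the 2 lowest levels of each, the lower of them being BM-MC replicate 3 for Nfe2l2 and Nqo1 and control replicate 3 for Akr7a3. Hmox1 was also lowest in these last 2 samples. Ephx1 had another order, with its highest SHPC level in BM-MC replicate 2 and its lowest in control replicates 3 and 2. Gclc and the brighter probe of Txnrd1 did not follow, with r between -0.076 and 0.078 to Nfe2l2 and Nqo1. The second probe of Txnrd1 was not correlated. It differed from MHs by -0.38 in control SHPCs and -0.30 in SHPCs with BM-MCs. Among all tested probes of other genes, those most like Srxn1 over the 8 samples were Zmat3 (r = 0.99), Zgpat (r = 0.98) and Wdr91 (r = 0.98).

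**Figure D3:**
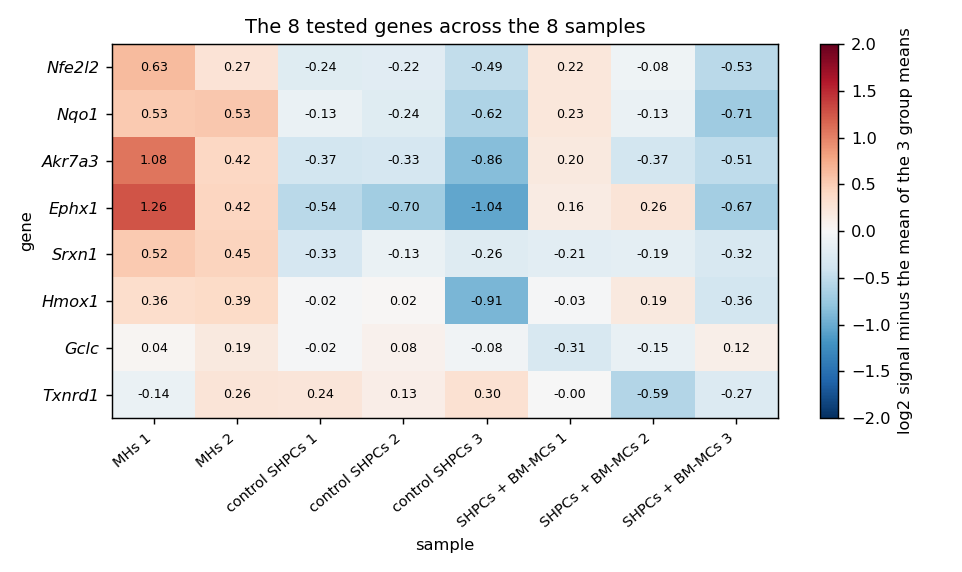
Each cell gives the log2 signal of a gene (rows) in a sample (columns) minus the mean of that gene's 3 group means, with red above and blue below that mean. Nfe2l2, Nqo1, Akr7a3 and Ephx1 are highest in the MHs. Among BM-MC samples Nfe2l2, Nqo1 and Akr7a3 fall from replicate 1 to replicate 3, for Nfe2l2 from 0.22 to -0.53, whereas Ephx1 is highest in replicate 2 (0.26). Srxn1 stays between -0.33 and -0.13 in all SHPC samples.

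Of 12 macrophage markers, 11 had a difference below 0 against MHs in control SHPCs and 11 in SHPCs with BM-MCs, with medians of -0.60 and -0.43, and limma called 0 in either comparison. All 12 macrophage markers were above background on all 7 complete arrays, and their summed linear signal was 96.5 to 100.4 in MHs, 49.4 to 71.9 in control SHPCs and 61.5 to 86.8 in SHPCs with BM-MCs. In 7 of the 12 the control SHPCs lay wholly below the MHs (22.6% of all probes), and 7 were lower at an unadjusted p under 0.05, where 11% of all probes were. With BM-MCs, 5 of the 12 lay wholly below the MHs (16.2% of all probes), and 3 were lower at an unadjusted p under 0.05, where 5.95% of all probes were. Cd68, a lysosomal protein of macrophages, was at 2.09 and 2.30 in MHs, at 1.58, 1.53 and 0.97 in control SHPCs and at 1.80, 1.79 and 1.26 in SHPCs with BM-MCs, so that it too was lowest in control replicate 3 and BM-MC replicate 3. Of the 10 hepatocyte markers, 8 had a difference above 0 in control SHPCs against MHs, with a median of 0.13, and limma called 0. At an unadjusted p under 0.05, 2 were higher and 1 lower, where 8.21% and 11% of all probes were. Apoa1, the main protein of high-density lipoprotein, differed by 0.73 (adjusted p = 0.18 from limma). Cyp2e1, a cytochrome P450 of the pericentral zone, was at 6.88 and 6.28 in MHs, at 5.26, 5.14 and 5.65 in control SHPCs and at 6.32, 6.04 and 5.41 in SHPCs with BM-MCs, with a log2 difference of -1.23 in the same comparison (adjusted p = 0.13 from limma). The part of macrophage RNA and of the place in the lobule where cells were cut in the levels of Hmox1, Ephx1 and the other members was not tested.

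Among markers of other cells, the median log2 differences of control SHPCs against MHs were 0.74 over 6 biliary, 0.64 over 4 granulocyte, 0.75 over 5 erythroid, 0.10 over 9 stellate and -0.24 over 5 endothelial markers tested. Limma called 0 of them. In the same order, 2 were higher and 0 lower, 0 and 0, 0 and 0, 3 and 2, and 0 and 1 at an unadjusted p under 0.05 (8.21% and 11% of all probes). With BM-MCs against MHs the medians were 0.70, -0.74, -0.72, 0.32 and -0.0028, and limma called 0. At an unadjusted p under 0.05, 4 stellate markers were higher there (7.33% of all probes) and 0 markers of these lists were lower. Of the 9 stellate markers, 4 lay wholly above the MHs and 1 wholly below (15.9% and 16.2% of all probes). The summed linear signal of the 6 granulocyte markers, of which 2 were above background on no array, was 0.41 to 1.55 in MHs, 1.18 to 1.60 in control SHPCs and 0.40 to 0.52 in SHPCs with BM-MCs. That of the 5 erythroid markers was 13.5 to 27.7, 21.2 to 72.2 and 10.4 to 14.3. Between the SHPC groups, SHPCs with BM-MCs lay wholly below the controls in 3 of 4 granulocyte markers (median -1.38) and 4 of 5 erythroid markers (median -1.46), against 11.6% of all probes. Limma called 0 of either, and 3 were lower in each at an unadjusted p under 0.05, where 5.92% of all probes were.

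Control replicate 3, which had the lowest Hmox1, Akr7a3 and Ephx1 of all samples, stood apart in blood genes. Hba-a1, a haemoglobin chain, was at 6.05 in this sample, at 4.36 and 4.30 in the other controls, at 3.65 and 4.69 in MHs and at 3.26, 3.34 and 3.73 in SHPCs with BM-MCs. The comparison of control SHPCs with MHs without this sample is that within the first array set, given above. The part of blood cells in the members' levels was not tested.

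Several regulators of Nrf2 had lower levels in SHPCs than in MHs, although none passed the adjusted test. Among 12 regulators, limma called 0 in all 3 comparisons. In 8 of the 12 the control SHPCs lay wholly below the MHs and in 2 wholly above (22.6% and 18.7% of all probes). The median log2 difference was -0.44, with 6 lower and 1 higher at an unadjusted p under 0.05 (11% and 8.21% of all probes). With BM-MCs, 5 of the 12 lay wholly below the MHs and 1 wholly above (16.2% and 15.9% of all probes). The median was -0.12, with 3 lower and 1 higher at an unadjusted p under 0.05 (5.95% and 7.33% of all probes). Between the SHPC groups 2 were higher and 0 lower at that threshold, where 10.7% and 5.92% of all probes were. Sqstm1, the autophagy receptor p62 that takes Keap1 away from Nrf2 and is itself a target of Nrf2, was at 4.88 and 4.65 in MHs, at 4.05, 3.95 and 3.78 in control SHPCs and at 4.16, 4.43 and 3.90 in SHPCs with BM-MCs. Both SHPC groups lay below the MHs, by -0.84 (adjusted p = 0.092 from limma) and -0.60 (adjusted p = 0.29 from limma). The inhibitor itself was also lower in level: Keap1 differed by -0.55 in control SHPCs (adjusted p = 0.11 from limma) and by -0.48 in SHPCs with BM-MCs (adjusted p = 0.26 from limma). Between the SHPC groups, the small Maf partners Mafk and Mafg had the lowest unadjusted p of the list, with differences of 0.46 and 0.48 (adjusted p = 0.20 and 0.28 from limma).

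Among 36 other genes commonly described as Nrf2 targets, 2 were called lower and 0 higher in control SHPCs against MHs (0.216% and 0.917% of all probes), and 11 were lower and 1 higher at an unadjusted p under 0.05 (11% and 8.21% of all probes). Abcc3, an export pump for conjugated bile acids and glucuronides in the basolateral membrane, was at -3.09 and -3.34 in MHs, at -5.10, -5.40 and -4.99 in control SHPCs and at -4.01, -4.37 and -5.13 in SHPCs with BM-MCs. In control SHPCs against MHs its log2 level fell by 1.95 (adjusted p = 0.038 from limma), and the SHPCs with BM-MCs reached from between the other groups down into the controls. With another background correction (normexp, with quantile normalization on 7 arrays) the difference of Abcc3 was -0.96 (adjusted p = 0.071 from limma). Its call held in 12 of 22 alternatives and in 2 of the 8 that left out 1 sample. The glutathione transferase Gstm1 was at 4.36 and 3.96 in MHs, at 3.32, 3.32 and 3.30 in control SHPCs and at 3.83, 3.72 and 3.66 in SHPCs with BM-MCs. It fell by 0.85 in control SHPCs (adjusted p = 0.048 from limma), and the 3 groups did not overlap. This call held in 7 of 22 alternatives and in 2 of the 8 that left out 1 sample.

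In SHPCs with BM-MCs against MHs, 1 of the 36 was called lower and 0 higher (0.0173% and 0.32% of all probes), and 11 were lower and 0 higher at an unadjusted p under 0.05 (5.95% and 7.33% of all probes). The called gene was Gsta2, another glutathione transferase, at 3.60 and 3.35 in MHs, 2.80, 2.87 and 2.63 in control SHPCs and 2.51, 2.30 and 2.55 in SHPCs with BM-MCs. Its log2 level fell by 1.02 (adjusted p = 0.046 from limma), a call that held in 4 of 20 alternatives and in 0 of the 8 that left out 1 sample. Its lowest group was that with BM-MCs, whereas for Gstm1 it was the controls. Glutathione transferases resemble each other in sequence, and whether these probes read 1 gene each was not tested. The SHPC samples lay wholly below the MHs in 20 of the 36 in controls (22.6% of all probes) and in 18 of the 36 with BM-MCs (16.2% of all probes), with medians of -0.22 and -0.24. Between the SHPC groups limma called 0 of the 36, and the median was -0.00020. At an unadjusted p under 0.05, 3 were higher and 2 lower, where 10.7% and 5.92% of all probes were. Gstm1 and the aldehyde oxidase Aox1 had the lowest unadjusted p, with differences of 0.42 and 0.55 (adjusted p = 0.17 and 0.22 from limma).

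**Figure D4:**
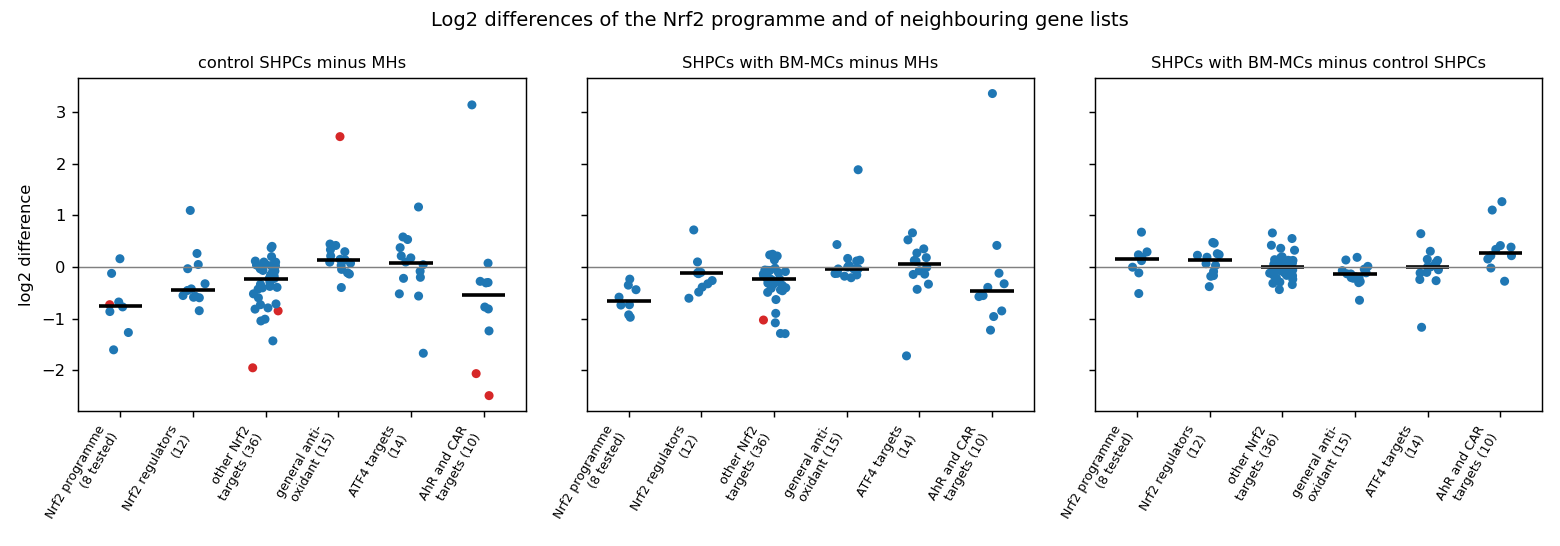
Log2 differences (vertical axis) of single genes in the Nrf2 programme and in 5 other lists, 1 panel for each comparison, with a black line at the median of each list and red points at an adjusted p under 0.05. The median of the Nrf2 programme is -0.75 in control SHPCs and -0.66 in SHPCs with BM-MCs against MHs. In the same order, AhR and CAR targets are at -0.54 and -0.47 and Nrf2 regulators at -0.44 and -0.12. Other Nrf2 targets are at -0.22 and -0.24, ATF4 targets at 0.07 and 0.06 and the general antioxidant list at 0.14 and -0.03.

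A further list held 15 antioxidant enzymes of the liver that are not mainly described as Nrf2 targets. Of these, 1 was called higher and 0 lower in control SHPCs against MHs (0.917% and 0.216% of all probes), with a median of 0.14, 3 higher and 1 lower at an unadjusted p under 0.05 (8.21% and 11% of all probes), and 6 wholly above and 1 wholly below the MHs (18.7% and 22.6% of all probes). The difference between this list and the Nrf2 programme was not tested. Limma called 0 in the other comparisons. At an unadjusted p under 0.05, 1 was higher with BM-MCs against MHs, where 7.33% of all probes were, and 0 between the SHPC groups. The called gene was Ggt1, the γ-glutamyltransferase that breaks down glutathione outside the cell. Ggt1 was at -4.45 and -4.85 in MHs, at -2.14, -2.16 and -2.07 in control SHPCs and at -3.21, -3.21 and -1.87 in SHPCs with BM-MCs, and its log2 level rose by 2.53 in control SHPCs against MHs (adjusted p = 0.034 from limma). With normexp correction and quantile normalization on 7 arrays the rise was 1.66 (adjusted p = 0.11 from limma). The call held in 12 of 22 alternatives and in 2 of the 8 that left out 1 sample. BM-MC replicate 3, which had the lowest Nfe2l2 and Nqo1 of the BM-MC samples, had the highest Ggt1.

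Nqo1 and Ephx1 also answer to the xenobiotic receptors AhR and CAR. Of 13 genes listed for these receptors 10 were tested, and 2 were called lower and 0 higher in control SHPCs against MHs (0.216% and 0.917% of all probes), with a median of -0.54 over the 10. In 7 of the 10 the control SHPCs lay wholly below the MHs and in 1 wholly above (22.6% and 18.7% of all probes). With BM-MCs, 5 lay wholly below and 1 wholly above (16.2% and 15.9% of all probes), with a median of -0.47. Cyp2b2, the classical CAR target, was at 2.79 and 1.53 in MHs, at -0.29, -0.20 and -0.50 in control SHPCs and at 1.22, 1.09 and 0.50 in SHPCs with BM-MCs, and its log2 level fell by 2.49 in controls (adjusted p = 0.031 from limma). Nr1i3, which encodes CAR itself, was at 0.41 and -0.46 in MHs, at -2.20, -1.81 and -2.24 in control SHPCs and at -0.63, -0.72 and -1.58 in SHPCs with BM-MCs, and fell by 2.06 in controls (adjusted p = 0.049 from limma). The calls held in 12 of 22 alternatives for Cyp2b2 and in 7 of 22 for Nr1i3. With 1 sample left out they held in 3 of 8 and 1 of 8. For both genes the SHPCs with BM-MCs lay wholly between the MHs and the controls, with differences to the controls of 1.27 and 1.10 (adjusted p = 0.12 and 0.18 from limma). Limma called 0 of the 10 in SHPCs with BM-MCs against MHs (1 higher and 4 lower at an unadjusted p under 0.05, where 7.33% and 5.95% of all probes were) and 0 between the SHPC groups (2 higher and 0 lower, where 10.7% and 5.92% of all probes were). The AhR targets Cyp1a1 and Cyp1a2 lay on opposite sides of the MHs. Cyp1a2 was at 5.23 and 4.92 in MHs, at 4.28, 4.26 and 4.37 in control SHPCs and at 4.52, 4.70 and 4.36 in SHPCs with BM-MCs. Both SHPC groups lay wholly below the MHs, by -0.77 in controls (adjusted p = 0.068 from limma) and -0.55 with BM-MCs (adjusted p = 0.26 from limma). Cyp1a1 was not well above background in either MH sample (-8.41 and -6.72) and was above it in every SHPC array with a mark, at -4.11, -4.52 and -4.65 in control SHPCs and at -5.78, -2.67 and -4.17 in SHPCs with BM-MCs. Against the floor of the MH arrays it was at least 3.48-fold higher in control SHPCs and at least 4.06-fold higher in SHPCs with BM-MCs, and on the measured signals it did not pass the test (adjusted p = 0.14 and 0.23 from limma). The part of AhR and CAR in the levels of Ephx1 and Nqo1 was not tested.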

How the data were processed

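RNA of LMD samples was labelled in 1 colour and hybridised to Agilent rat arrays, all 8 on 1 slide and in 1 scan. The values deposited by the authors are processed scanner signals, a linear intensity with background already subtracted by Feature Extraction 10.7 and no scaling between arrays, together with its marks for background, saturation and outliers. For control SHPC replicate 2 the file breaks off at 20903 of 62976 features. The deposited value table, which held the same processed intensity, supplied its signals. Its background marks, which cover these features only, were left out of the filter and served for its floor in the bounds.

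Here, signals were set to log2 relative to the array's 75th percentile. Outlier spots were dropped and repeat spots averaged. Of all probes, 23111 were well above background on 3 or more of the 7 complete arrays and entered limma 3.58.1 (R 4.3.3), with Benjamini-Hochberg adjustment over all of them at a threshold of 0.05. The comparison between SHPC groups used 6 samples, and those with MHs a fit of all 8 samples. The fits were tested on simulated data. The brightest tested probe stood for a gene. The methods name Student's t-test, which was run as an alternative. The number of arrays limits the precision.

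All 10 members are named. Other lists comprise regulators of Nrf2, other Nrf2 targets, general antioxidant enzymes, targets of ATF4 and of AhR and CAR, haem handling and cell markers. The rule for naming their genes took up to 4 past the threshold with the lowest p per comparison, or otherwise the 2 with the lowest unadjusted p. The text gives some of the genes so picked, chosen with their values in view. The members and lists were chosen with earlier results of these data known. Alternatives covered scaling, background correction, filters, the fit, blocks, the test and leaving out each sample.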

Additional observations from a re-analysis of the deposited data

How the results depend on the processing

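The single call of a member, Srxn1 lower in control SHPCs against MHs, depended on the processing. The number of members called lower there was 1 and became 0 with the array's median as scale, without scaling, without a filter on dim probes, with only the 2 groups in the fit, with the array set as a block, within 1 set and with the methods' t-test after Benjamini-Hochberg adjustment. It was 3 with an intensity trend in limma (Ephx1 and Akr7a3 in addition) and 5 with the unadjusted t-test, and 0 to 2 with each sample left out (2 without BM-MC replicate 3, with Ephx1). Over 22 alternatives other than t-tests the log2 difference of Srxn1 stayed between -0.82 and -0.68 (adjusted p from 0.0080 to 0.24 from limma) and passed in 8. The count for SHPCs with BM-MCs against MHs rose from 0 to 1 (Srxn1) with the trend and the unadjusted t-test, and that between the SHPC groups from 0 to 1 (Txnrd1) with the latter.

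Calls of other genes changed too. Over the alternatives other than t-tests, those in control SHPCs against MHs held in 12 of 22 for Abcc3, Cyp2b2 and Ggt1 and in 7 of 22 for Gstm1 and Nr1i3, and that of Gsta2 with BM-MCs against MHs in 4 of 20. With 1 sample left out they held in 3 of 8 (Cyp2b2), 2 of 8 (Abcc3, Ggt1 and Gstm1), 1 of 8 (Nr1i3) and 0 of 8 (Gsta2). Without each sample in turn, limma called 49 to 309 probes higher and 4 to 214 lower in control SHPCs against MHs and 0 to 490 and 0 to 40 between the SHPC groups. With BM-MCs against MHs it called 0 probes without control replicate 1, control replicate 2 or BM-MC replicate 2. The methods' t-test after Benjamini-Hochberg adjustment called 0 probes in all 3 comparisons (unadjusted, 1865 higher and 2164 lower in control SHPCs against MHs, 1007 and 1120 with BM-MCs against MHs, and 1864 and 1573 between the SHPC groups).

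With the replicate number as a replicate block, the count in control SHPCs against MHs was 0, with Srxn1 at -0.70 (adjusted p = 0.14 from limma). The main fits did not take the numbers to pair samples, since no label does so. Deviations of same-numbered control and BM-MC samples correlated at 0.13, 0.078 and 0.17, and those of different-numbered ones at -0.15 to 0.082. Whether these samples were paired was not settled by such values. Same-numbered samples and MHs correlated at -0.13 to 0.051, but deviations of only 2 MH samples mirror each other and cannot show a pairing. Over all probes the block moved the calls from 5 to 0 between the SHPC groups, from 212 higher and 50 lower to 130 and 29 in control SHPCs against MHs, and from 74 higher and 4 lower to 0 in SHPCs with BM-MCs against MHs.

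Differences between the SHPC groups near 0 changed sign. Scaling by the median, which puts the median of all probes at -0.17 there (and at -0.19 in SHPCs with BM-MCs against MHs), gave -0.0031 for Nfe2l2 and -0.066 for Nqo1. Nqo1 gave -0.092 without BM-MC replicate 1 and -0.019 without control replicate 3 (range with each sample left out -0.092 to 0.38), and Hmox1 -0.066 without the latter (-0.066 to 0.40). Gclc gave 0.016 after normexp correction. Srxn1 gave 0.0060 without scaling, 0.10 after normexp, 0.054 after quantile normalization, 0.016 with the set as a block or within it, 0.038 without BM-MC replicate 3 and 0.054 without control replicate 2 (-0.048 to 0.054). In control SHPCs against MHs, Txnrd1 gave -0.11 as the mean of its probes and -0.039 without MH replicate 1 (-0.039 to 0.36). The cause of these changes was not tested. Signal over background limits Gclm and Slc7a11 to bounds. The set block was not run for SHPCs with BM-MCs against MHs, where set and group coincide.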

Other observations

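Other lists border on single members. Of 14 genes of the amino acid response driven by ATF4, which also acts on Slc7a11 and Hmox1, limma called 0 in all 3 comparisons. Asparagine synthetase, Asns, was at -3.0 and -3.01 in MHs, at -4.64, -4.38 and -5.00 in control SHPCs and at -4.38, -4.22 and -5.57 in SHPCs with BM-MCs, so that both SHPC groups lay below the MHs (log2 differences -1.67 and -1.72, adjusted p = 0.11 and 0.20 from limma). Psat1, of serine synthesis, went the other way in control SHPCs against MHs (1.16, adjusted p = 0.13 from limma) and was lower in level with BM-MCs than in controls (-1.16, adjusted p = 0.17 from limma). Trib3, a pseudokinase of the same response, differed by 0.65 between the SHPC groups (adjusted p = 0.12 from limma), at -0.56, -0.61 and -0.65 with BM-MCs and -1.36, -1.19 and -1.21 without. The list as a whole had medians of 0.07 in control SHPCs and 0.06 in SHPCs with BM-MCs against MHs and of 0.0073 between the SHPC groups, with 1 higher and 3 lower, 1 higher and 2 lower, and 1 higher and 1 lower at an unadjusted p under 0.05, where 8.21% and 11%, 7.33% and 5.95%, and 10.7% and 5.92% of all probes were.

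Of 8 genes of haem and iron handling next to Hmox1, limma also called 0 in all 3 comparisons (1 higher and 2 lower, 1 higher and 0 lower, and 1 higher and 0 lower at an unadjusted p under 0.05, in the same order and against the same shares of all probes). Tfrc, the transferrin receptor, was at -0.54 and 0.14 in MHs, at 1.04, 1.26 and 1.52 in control SHPCs and at 0.03, 0.77 and 1.14 in SHPCs with BM-MCs, a log2 difference of 1.47 for control SHPCs against MHs (adjusted p = 0.11 from limma). The haem-binding plasma protein Hpx differed by -0.53 in the same comparison (adjusted p = 0.24 from limma), and Cd163, the macrophage receptor for haemoglobin, by 0.55 between SHPCs with and without BM-MCs (adjusted p = 0.30 from limma).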
